A study of Mus musculus with 6 samples.

Results

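The 10 genes described here carry out MHC class I antigen presentation. They are the heavy chain genes H2-K1 and H2-D1, the light chain gene B2m, the peptide loading genes Tap1, Tap2 and Tapbp, the immunoproteasome genes Psmb8, Psmb9 and Psmb10, and the regulator Nlrc5. They were chosen by symbol, from the RefSeq identifier of each row, out of 19048 rows that name 16911 genes. Each of the 10 symbols had 1 row. No measured value entered the choice by rule, although earlier results of these data were known when the genes were picked. The libraries hold RNA of naive CD4 T cells sorted from C57BL/6 animals, with 3 libraries from wild-type littermates (WT1 to WT3) and 3 from the genotype labelled Trim28 KO (KO1 to KO3). The title of every library carries the label D0, which the titles do not explain. The sort by flow cytometry followed magnetic enrichment. The age of the mice, the allele or Cre line behind the knockout, and whether each library came from 1 mouse or from several are details not given in the sources used here. The p-values below measure only the spread between these libraries, which may in part be technical.

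Class I molecules sit on the surface of nearly all nucleated cells, T cells included, and show peptides from inside the cell to CD8 T cells. Proteasomes cut proteins into peptides, the TAP transporter moves them into the endoplasmic reticulum, and tapasin helps load them onto a heavy chain paired with beta-2-microglobulin. NLRC5 switches on most of these genes in lymphocytes, acting through factors bound to a shared promoter module, and interferons raise them further. Trim28 encodes a corepressor of transcription.

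None of the 10 genes was called as changed in naive CD4 T cells labelled Trim28 KO. Their log2 fold changes ran from -0.18 for B2m to 0.15 for Tapbp. All 10 passed the filter on low rows, a mean normalized count of at least 10, and none reached an adjusted p under 0.05 in limma. Among all 13022 rows tested, 1.51% were called (1.19% as higher and 0.315% as lower in the knockout), so a count of 0 out of 10 is near that background. At an unadjusted p under 0.05 the count was also 0 of 10, against 12.7% of all rows. Limma with voom weights on the recovered reads also called 0 of the 10, against 160 of all 13022 rows. The libraries of the groups lay apart for 1 of the 10 genes, B2m, against 18.8% of all rows. The median log2 fold change was -0.05 over the 10 genes and 0.0019 over all rows tested. With libraries scaled by their totals, these medians were 0.01 and 0.06. The adjusted p ran from 0.481 for B2m to 0.939 for Psmb8.

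The precision of these values sets what could have been seen. The 95% interval of the fold, knockout over wild type, ran from 0.763 to 1.02 for B2m at the low end of the list. For 9 of the 10 genes the whole interval lay between 0.763 and 1.30, and for Tapbp it ran from 0.795 to 1.54. At its own standard error, Nlrc5 would have needed a log2 change of 0.45 to be called and Tapbp one of 1.07, and the other genes lay between those sizes. The smallest change called in any row was 0.48 on the log2 scale. The sizes given for the genes are those of the estimated change. With 3 libraries a group, a true change of such a size could still have been missed. The missing calls therefore do not show that the levels were equal.

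**Figure D1:**
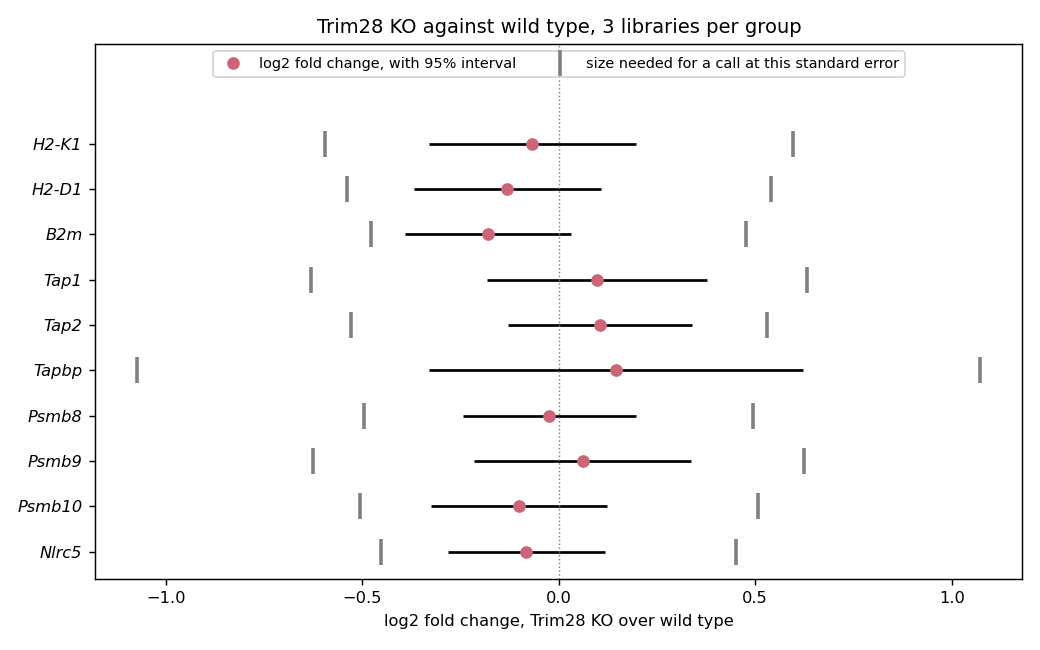
Log2 fold change of the 10 genes, Trim28 KO over wild type (3 libraries per group; points), with the 95% interval of limma (lines) and, as grey ticks, the size that would have been called at each gene's standard error. All points lie between -0.18 and 0.15, inside the ticks, and all 10 intervals cross 0.

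The labels were checked on Trim28 itself, whose mean normalized count was 8715 in wild-type and 871 in knockout libraries, 9.99% of the wild type (limma adjusted p 0.000135). Depth ran from 22005759 to 44372701 reads per library, and the 10 genes together took 0.841% to 1.02% of the reads of a library. KO3 stood apart in markers of other cells. All 7 MHC class II genes were highest there, with a sum of 6671 normalized counts, against 1204 and 1295 in KO1 and KO2 and 1048 to 1945 in the wild type. The CD8 T cell markers (2 of 2 highest in KO3) summed to 4416 there and to 561 to 1065 elsewhere. The B cell markers (7 of 8 highest in KO3) summed to 1754 there and to 179 to 356 elsewhere. The NK cell, dendritic cell and myeloid markers had 4 of 5, 4 of 5 and 3 of 7 genes highest in KO3, with sums of 1716, 672 and 615 there. None of these markers was at 0 in all 6 libraries, and none was called in limma. The 7 T cell markers with a row summed to 102539 in KO3 and to 113320 to 117607 in the other libraries. Of these markers, only Cd4 and Cd28 were lowest in KO3, and none was highest there. Cd3e was at 5730 in KO3, above WT1 (5077) and WT3 (5369). Cd3d and Lck in KO3 also lay above some wild-type libraries. Y-linked transcripts marked WT1 and KO2, with sums of 13625 and 12677, and were at most 2.39 in the other libraries, so the libraries of a group did not all come from the same animals. Xist, the RNA of the inactive X chromosome, was present in all 6 libraries, at 12289 in WT1 and 16359 in KO2 and at 19461 to 28062 in the others. WT1 and KO2 thus held both Y-linked transcripts and Xist. In bulk RNA of this kind, fewer cells of a type and less RNA per cell cannot be told apart.

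The heavy chain genes H2-K1 and H2-D1 encode the classical class I molecules of C57BL/6 mice. H2-K1 (row NM_001001892) lies on chromosome 17 at 33996012 to 34000619 and H2-D1 (NM_010380) at 35263094 to 35267497, in GRCm38, the assembly of mm10. B2m (NM_009735, chromosome 2, 122147687 to 122153082) encodes beta-2-microglobulin, the light chain that every class I molecule needs to reach the surface. The regulatory windows of these genes are shown first, because NLRC5 and the interferon and kappa B factors are known to act on them. The RefSeq promoter table of GRCm38.p6 held windows for 8 of the 10 genes, each from 250 bases before to 50 bases after a transcript start. Capitals mark matches on either strand to GAAANNGAA or GAANNGAAA (2 forms of the interferon-stimulated response element core), TTCNNNGAA (gamma-activated site), CCAAT (the core of the Y box), TGACG (the X2 box or CRE core) and the kappa B site. GAANNGAAA was added after the sequences were seen. Tap1 is included because its window runs into the immunoproteasome gene Psmb9. All are written 5′ to 3′ on the gene's own strand.
H2-K1, first of 2 windows, chr17:34000298-34000597, minus strand: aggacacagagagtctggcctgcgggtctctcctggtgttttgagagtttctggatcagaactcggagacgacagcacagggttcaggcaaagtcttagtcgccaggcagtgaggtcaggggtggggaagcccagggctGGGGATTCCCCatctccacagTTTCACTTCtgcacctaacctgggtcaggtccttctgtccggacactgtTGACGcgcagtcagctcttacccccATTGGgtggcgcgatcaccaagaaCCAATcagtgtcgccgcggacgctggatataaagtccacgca
H2-D1, chr17:35262844-35263143, plus strand: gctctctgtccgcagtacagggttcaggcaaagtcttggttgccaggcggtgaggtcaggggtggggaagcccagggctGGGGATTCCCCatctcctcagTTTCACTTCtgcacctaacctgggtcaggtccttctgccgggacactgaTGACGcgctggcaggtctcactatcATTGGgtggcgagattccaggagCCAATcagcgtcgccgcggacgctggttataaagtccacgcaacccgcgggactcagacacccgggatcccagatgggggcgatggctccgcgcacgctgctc
B2m, chr2:122147437-122147736, plus strand: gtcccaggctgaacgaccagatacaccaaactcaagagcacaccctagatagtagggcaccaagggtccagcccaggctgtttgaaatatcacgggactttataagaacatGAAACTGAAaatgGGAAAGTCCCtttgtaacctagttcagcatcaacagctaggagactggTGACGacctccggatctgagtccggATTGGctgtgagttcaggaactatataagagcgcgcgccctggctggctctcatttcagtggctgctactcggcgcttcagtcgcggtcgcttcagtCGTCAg
Tap1, chr17:34187306-34187605, plus strand: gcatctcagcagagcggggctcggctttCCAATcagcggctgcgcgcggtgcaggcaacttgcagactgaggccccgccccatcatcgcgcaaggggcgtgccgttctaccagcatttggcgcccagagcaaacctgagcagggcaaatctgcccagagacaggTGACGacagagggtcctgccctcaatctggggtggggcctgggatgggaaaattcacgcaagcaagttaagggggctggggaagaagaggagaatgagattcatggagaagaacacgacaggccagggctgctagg

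The windows of H2-K1 and H2-D1 were nearly the same sequence, with 206 of 228 aligned bases identical (90.4%). Both held, in the same order, an overlapping pair of kappa B matches, a GAANNGAAA match on the opposite strand, TGACG, and CCAAT on each strand. In H2-D1 these began 171, 150, 101, 76 and 53 bases before the transcript start. The B2m window held GAAANNGAA (139 bases before the start), a kappa B match (126), TGACG (78) and CCAAT on the opposite strand (53), with a second TGACG match after the start. Among the 8 windows, taking 1 per gene, TGACG was found in 5, against 21.0% of 27025 mouse promoters of the same length. CCAAT was found in 6 of 8 (37.9% of all), the kappa B site in 3 (8.18%), GAAANNGAA in 1 (8.57%), GAANNGAAA in 2 (7.56%) and TTCNNNGAA in 1, Psmb8 (8.47%). The Tap1 and Psmb9 windows are the same DNA over 275 bases and share 1 TGACG and 1 CCAAT match. A match is a string of letters and was not tested as a bound site.

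H2-K1 was counted at 115999.6, 97298 and 118369 in WT1, WT2 and WT3 and at 103492, 98895 and 113547 in KO1, KO2 and KO3. The groups overlap, with WT2 the lowest of the 6 libraries and WT3 the highest. The means were 110555 ± 11542 and 105311 ± 7493 (SD, n = 3 per group). Their log2 fold change was -0.07 (SE 0.12; adjusted p in limma 0.855). H2-D1 was counted at 45597, 38797 and 43098 in the wild type and at 38066, 35880.3 and 42531 in the knockout. The highest knockout library, KO3, lay above WT2 and below both other wild-type libraries. Its log2 fold change was -0.13 (SE 0.10, limma adjusted p 0.651).

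B2m was the one gene whose groups did not overlap, which 18.8% of all rows share. It was counted at 112576, 107069 and 103266 in the wild type and at 95189, 93015 and 96791 in the knockout. The SD was 4.35% of the mean in the wild type and, in the knockout, the lowest share of any of the 10 genes in either group. Means were 107637 ± 4681 in the wild type and 94998 ± 1895 in the knockout (SD, n = 3 per group), the latter being 88.3% of the former. The log2 fold change of -0.18 (SE 0.09) did not pass, at a limma p of 0.0869 and an adjusted p of 0.481. Quantile normalization, which leaves the rank of a gene within each library, turned the sign of B2m to 0.11 and of H2-K1 to 0.22, neither called. The level of H2-K1 per base of transcript was 0.546 ± 0.0631 of that of B2m in the wild type and 0.588 ± 0.0307 in the knockout (SD, n = 3 per group), with overlapping groups.

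**Figure D2:**
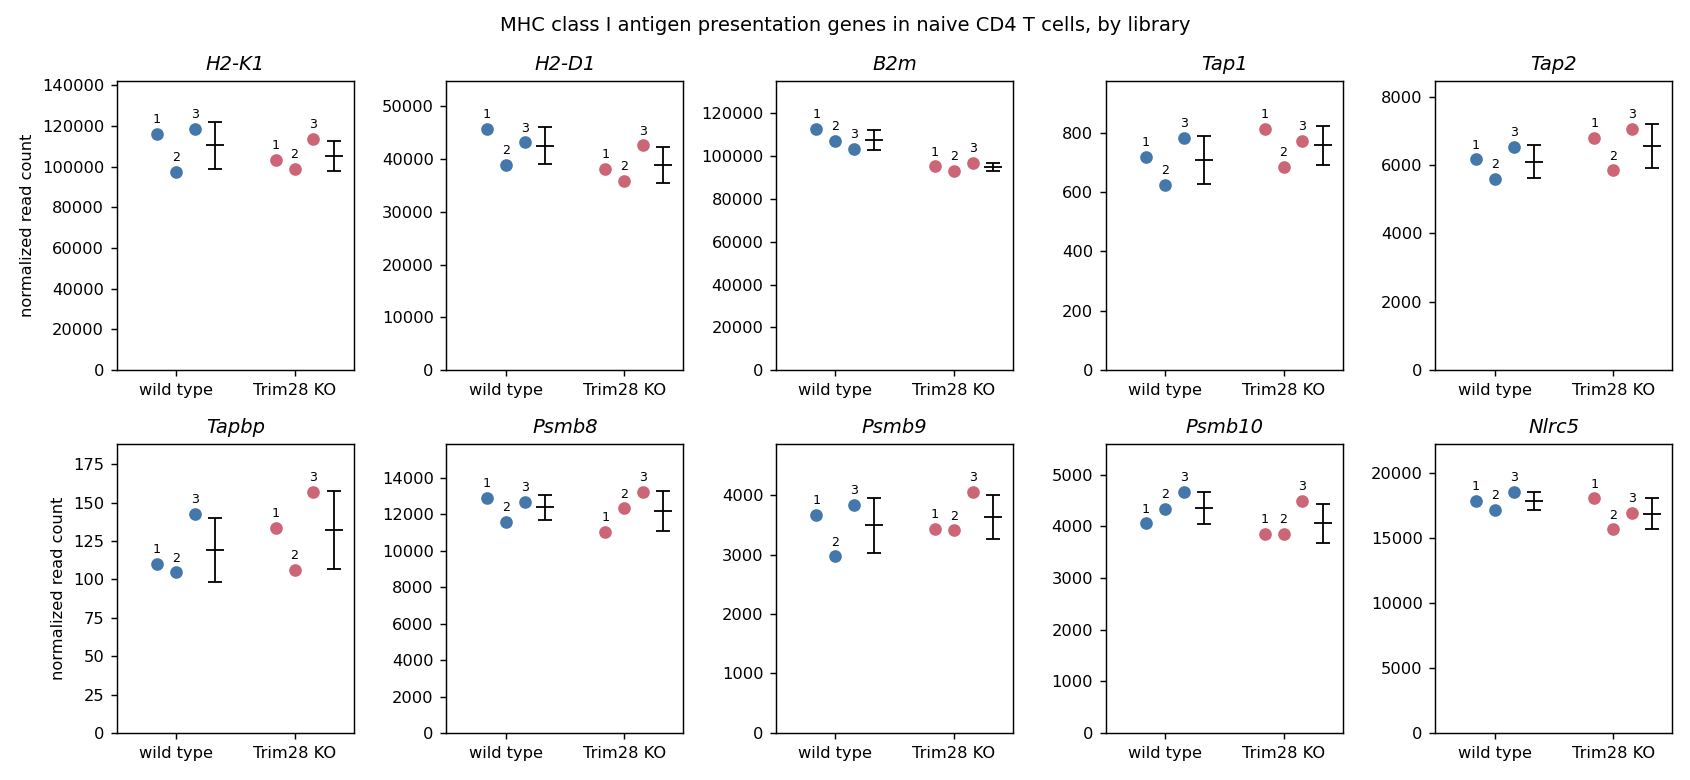
Normalized read count of the 10 genes in each library (points, numbered by library; wild type blue, Trim28 KO red), with the group mean and SD (black; n = 3 per group). The y axes start at 0 and differ between genes; the groups overlap in every panel but that of B2m.

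Tap1 and Tap2 encode the paired subunits of the peptide transporter, and Tapbp encodes tapasin, which holds the empty class I molecule beside it. These 3 genes had slightly higher means in the knockout, and none passed the test. Tap2 (NM_011530, chromosome 17, 34204479 to 34216321) was counted at 6167, 5585 and 6535 in the wild type and at 6793, 5844 and 7048 in the knockout. KO1 and KO3 lay above all wild-type libraries, and KO2 lay below WT1 and WT3. Its log2 fold change was 0.10 (SE 0.10, limma adjusted p 0.721). Tap1 (NM_013683, 34187556 to 34197225) was counted at 718, 623 and 783 in the wild type and at 811, 685 and 773 in the knockout, and its log2 fold change was 0.10 (SE 0.12; adjusted p in limma 0.789). KO1 was the highest library and WT2 the lowest.

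Tapbp (NM_001025313, 33919478 to 33929290) was the least precise of the 10, resting on 73 to 197 reads per library. Its normalized count was 110.2, 105 and 143 in the wild type and 134, 106 and 157 in the knockout. The highest value was in KO3 and the lowest in WT2, and the log2 fold change was 0.15 (SE 0.21, limma adjusted p 0.819). Without KO3 it was 0.01.

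The rows of Tap1, Tapbp and H2-K1 share a feature that limits what their levels mean. RefSeq lists 2 curated transcripts for each of these genes and 1 for each of the other 7. Of the 100-base stretches of the transcript behind the row, 84.7% in Tap1, 85.5% in Tapbp and 88.0% in H2-K1 also occur in the other curated transcript. The labels do not say how reads shared by transcripts of 1 gene were counted. Across the table, genes with 1 curated transcript had a median wild-type level of 329.97 normalized counts per kb (6800 genes), and genes with 2 or more had 112 (4989 genes). Sharing between genes was low. Of the 100-base stretches of H2-D1, 4.64% occur in another gene, H2-Q1 among them, and 0.107% of Tapbp, with 0% for the other 8 genes.

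Per kb of transcript in the wild type, B2m ranked 17th and H2-K1 53rd of 12773 rows with a length, at 125159 and 68286 normalized counts per kb. H2-D1 ranked 95th, at 20218. Psmb8 followed at 7608 per kb, Psmb10 at 3318, Psmb9 at 2581, Nlrc5 at 2566 and Tap2 at 1771. Tap1 was at 239.8 and Tapbp at 41.1 per kb. Psmb9 and Nlrc5, neighbours in that order, differed by less than the spread of Psmb9 between the wild-type libraries, which was 13.1% of its mean. The order was the same in the knockout, where the values ran from 110463 for B2m to 45.7 for Tapbp.

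Psmb8, Psmb9 and Psmb10 encode the catalytic subunits that replace Psmb5, Psmb6 and Psmb7 in the immunoproteasome, the form of the proteasome that favours peptides suited to class I molecules. None of the 3 passed the test. Psmb8 (NM_010724, chromosome 17, 34198195 to 34201454) was counted at 12889, 11582 and 12687 in the wild type and at 11026, 12329.8 and 13239 in the knockout, so that the knockout libraries held both the lowest and the highest value. Its log2 fold change was -0.02 (SE 0.10, limma adjusted p 0.939). Psmb9 (NM_013585, 34182030 to 34187330) was counted at 3667, 2969 and 3832 in the wild type and at 3426, 3407 and 4054 in the knockout, with KO3 the highest library and WT2 the lowest. Its log2 fold change was 0.06 (SE 0.12, limma adjusted p 0.878), and -0.02 without KO3. Psmb10 (NM_013640, chromosome 8, 105935728 to 105938392) was counted at 4054, 4335 and 4663 in the wild type and at 3843, 3843 and 4491 in the knockout. KO1 and KO2 were the lowest libraries, and the log2 fold change was -0.10 (SE 0.10, limma adjusted p 0.718).

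The partners of these subunits in the standard proteasome make a ratio that does not depend on the scaling of the libraries. Psmb8 stood at 3.82, 3.71 and 4.39 times Psmb5 per kb in the wild type and at 4.58, 4.395 and 4.94 times in the knockout. The groups lay apart by a narrow margin, WT3 against KO2. Psmb9 was below its partner, at 0.586, 0.526 and 0.612 of Psmb6 in the wild type and 0.656, 0.612 and 0.646 in the knockout, and here too WT3 and KO2 nearly touched. Psmb10 was at 1.11, 1.31 and 1.27 times Psmb7 in the wild type and at 1.28, 1.04 and 1.26 times in the knockout, with groups that overlap. These ratios were looked at after the values were known and were not tested. Among single rows, 18.8% had groups that did not overlap, and no such share was worked out for ratios. Psmb5 itself was at 1727 ± 133 in the wild type and 1452 ± 113 in the knockout (SD, n = 3 per group). The difference, -0.25 on the log2 scale (SE 0.10), did not pass in limma (adjusted p 0.353).

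**Figure D3:**
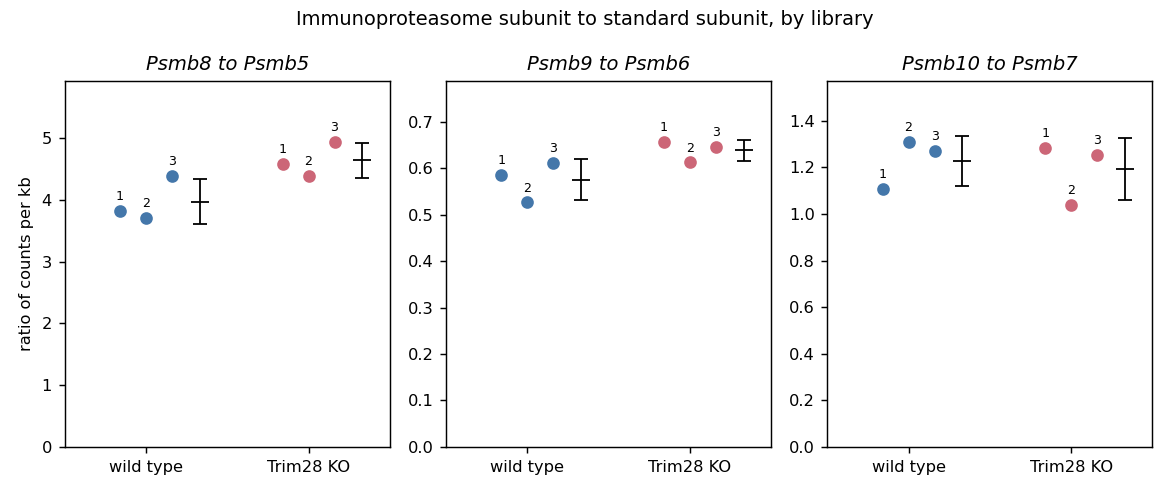
Ratio of each immunoproteasome subunit to its standard partner, in normalized counts per kb of transcript, in each library (points, numbered by library), with the group mean and SD (black; n = 3 per group; axes from 0). Psmb8 to Psmb5 averaged 3.97 in the wild type and 4.64 in the knockout, Psmb9 to Psmb6 0.575 and 0.638, and Psmb10 to Psmb7 1.23 and 1.19.

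Nlrc5 (NM_001033207, chromosome 8, 94434335 to 94527272) encodes the transactivator of the class I genes. It was counted at 17816, 17129 and 18508 in the wild type and at 18006, 15633 and 16894 in the knockout. KO2 and KO3 were the lowest libraries, and KO1 lay above WT1 and WT2. The means were 17818 ± 689 and 16844 ± 1187 (SD, n = 3 per group). The log2 fold change of Nlrc5 was -0.08 (SE 0.09; adjusted p in limma 0.741). It had the smallest standard error of the 10 genes, with a 95% interval of the fold from 0.822 to 1.08.

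The values of the 10 genes were also compared library by library. KO3 was the highest knockout library for 8 of the 10 genes and KO2 the lowest for 8. In the wild type, WT2 was the lowest library for 8 genes and WT3 the highest for 7. Of all rows tested, 37.7% had KO3 as the highest knockout library and 35.0% had WT2 as the lowest wild-type library. No such share was worked out for KO2 as the lowest or WT3 as the highest library. The median deviation of the 10 genes from their own mean over the 6 libraries was 0.05, -0.11 and 0.10 on the log2 scale in WT1, WT2 and WT3. In KO1, KO2 and KO3 it was -0.05, -0.12 and 0.09. WT1, WT3 and KO3, with the higher medians, were also the libraries with the highest sums of MHC class II transcripts (1940, 1945 and 6671), and the part of other cells in these differences was not tested. Without KO3 none of the 10 genes was called, against 4.3% of 12856 rows tested. The smallest adjusted p in limma was then 0.314 and the median log2 fold change -0.09. With the sum of 4 class II genes as a covariate, chosen after the data were seen, none was called either (smallest limma adjusted p 0.267), against 5.7% of all rows.

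**Figure D4:**
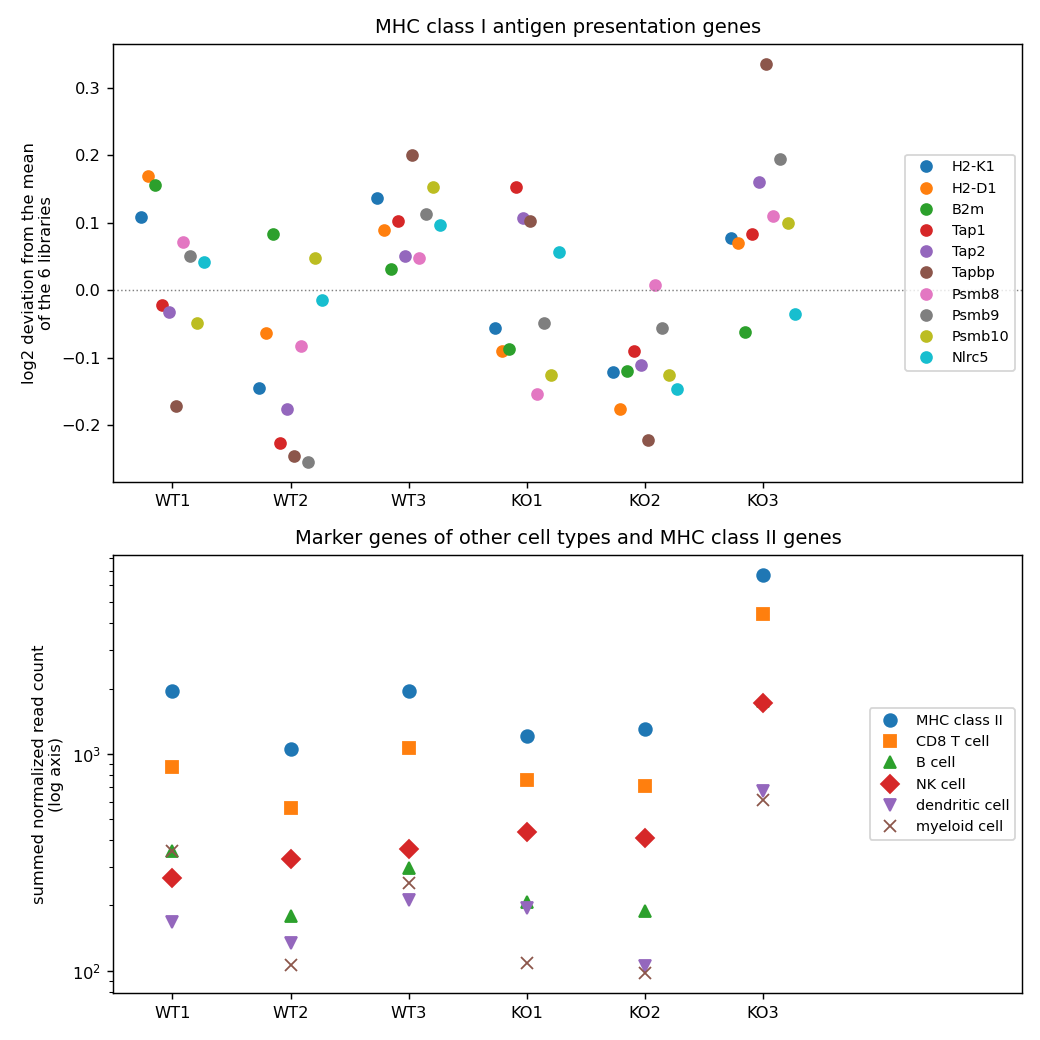
Upper panel, log2 deviation of each of the 10 genes from its mean over the 6 libraries; lower panel, summed normalized counts of marker lists of other cell types and of MHC class II genes (log axis). The medians of the upper panel are lowest in WT2 and KO2, at -0.11 and -0.12, and the marker sums are highest in KO3.

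Pairs of the 10 genes were compared over the 6 libraries by the correlation of log2 values, given as a description, since the libraries differ in depth and in markers of other cells. The median r over 45 pairs was 0.497, from -0.35 between B2m and Tap1 to 0.93 between Tap2 and Tapbp. Tap1 and Tap2 (0.93), H2-K1 and H2-D1 (0.89), H2-K1 and Psmb9 (0.85) and Tap1 and Tapbp (0.82) were the other pairs above 0.8. Tap1 and Psmb9, whose promoter windows overlap, had an r of 0.74, below 0.8 but above the median of all pairs. Nlrc5 had r between -0.11 (Psmb8) and 0.62 (H2-D1) with the other genes. None of its pairs was above 0.8, and they lay on both sides of the median. The 5 genes outside the list whose values followed Nlrc5 most closely were Hyou1 (r 0.992), Sfswap (0.989), Mllt6 (0.989), Pknox1 (0.987) and Zfand3 (0.978). With 6 libraries such values are easily reached, and 86 of 9657 genes compared had an r above 0.9.

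Of 79 other genes of the class I pathway that were tested, 0 were called in limma, also with voom weights. Over all 13022 rows 1.51% were called, and 160 rows with voom weights. Of the 79, 10 were at an unadjusted p under 0.05 (12.7% in these lists and 12.7% of all rows). They came from 5 lists of 87 genes, of which 3 had no row and 5 fell below the filter. Their median log2 fold change was -0.04, against 0.0019 for all rows. The groups did not overlap in 16 of the 79 (20.3%, against 18.8% of all rows).

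Among 13 tested heavy chain genes outside the main 10, which include the nonclassical class Ib genes, 0 were called, 1 had an unadjusted p under 0.05 and the median was -0.06. H2-K2, listed as a non-coding row beside H2-K1, was counted at 3416, 3516 and 3342 in the wild type and at 2804, 2786 and 2427 in the knockout. The groups lay apart, at a log2 fold change of -0.36 (SE 0.09), and the row did not pass in limma (adjusted p 0.12). H2-Q4 was at 15149.9 ± 2830.1 and 12122 ± 2380.2 (SD, n = 3 per group; log2 fold change -0.32), and H2-Q10 at 56.3 ± 13.6 and 33.5 ± 13.3, the latter on as few as 13 reads in a library. Heavy chain genes are close relatives, so reads may be shared among them.

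In the list of 19 genes for assembly, peptide trimming and transport, 0 were called, 6 had an unadjusted p under 0.05 (3 in each direction) and the median was -0.03. At 31.6% of the list, the share under that p was above the 12.7% of all rows. Tapbpl, which encodes the peptide editor TAPBPR, was counted at 2839, 2577 and 2727 in the wild type and at 3294, 3082 and 3175 in the knockout, with groups apart and 0.23 on the log2 scale (SE 0.08; adjusted p in limma 0.288). Uggt1, a folding sensor of the endoplasmic reticulum that works with TAPBPR, had a log2 fold change of -0.24 (SE 0.08; adjusted p in limma 0.268), and Bcap31, an export factor for class I molecules, one of -0.21 (SE 0.08; adjusted p in limma 0.294). The groups lay apart for both. Lnpep, an aminopeptidase of endosomes, was at 23312 ± 3118 and 30755 ± 6004 (SD, n = 3 per group) and did not pass in limma (adjusted p 0.353). Without KO3 Lnpep was the 1 gene of the pathway lists that was called in limma, as higher (adjusted p 0.0349), when 4.3% of all rows were called. Wdfy4, which dendritic cells use to present antigen taken up from other cells, was counted at 96.2, 12.1 and 166 in the wild type and at 60.7, 30.6 and 829.7 in the knockout. It was high in KO3, the library with the most class II and dendritic cell transcripts, whose part in this value was not tested. Lnpep and Wdfy4 are named after their values were seen.

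The list of standard proteasome genes held 15, of which only Psmb5, Psmb6 and Psmb7 are replaced in the immunoproteasome. Of the 15, 0 were called and 1, Psmb5, had an unadjusted p under 0.05. Their median was -0.10, and 13 of the 15 had lower means in the knockout, against 49.6% of all rows. With libraries scaled by their totals, again 13 of the 15 were lower, against 40.0% of all rows, and the median was -0.04. Psma4 and Psma6, both of the outer ring, had log2 fold changes of -0.18 (SE 0.11) and 0.18 (SE 0.10). Of 4 proteasome activator genes 0 were called and 0 had an unadjusted p under 0.05. Psme2, a subunit of the interferon-inducible activator PA28, was at 1365 ± 171 and 1155 ± 112 (SD, n = 3 per group), while its partner Psme1 was at 10250.1 ± 259.7 and had a log2 fold change of -0.09. Psme4 had a log2 fold change of 0.13. Values of Psme2 are from the larger of its 2 rows.

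Of 28 tested genes for promoter-bound factors and interferon signalling, 0 were called and 2 had an unadjusted p under 0.05, both receptor chains and both higher in the knockout. Ifnar2, a chain of the type I interferon receptor, was counted at 1521, 1523 and 1523 in the wild type and at 1915, 1999 and 2001 in the knockout. The groups lay apart, at a log2 fold change of 0.37 (SE 0.08), and the gene did not pass in limma at 0.05 (adjusted p 0.0744). Ifnar2, Irf9 and Irf1 each had 2 rows, and the values given are from the larger. Ifngr1, a chain of the interferon gamma receptor, was counted at 6431, 7846 and 5763 in the wild type and at 8760.4, 10097 and 8335 in the knockout. Its log2 fold change was 0.45 (SE 0.13, limma adjusted p 0.175), also with groups apart. Irf9, which carries the type I interferon signal to the nucleus, was at 198 ± 10.6 and 158 ± 16.2 (SD, n = 3 per group; log2 fold change -0.33, limma adjusted p 0.405). With rows summed per gene, the log2 fold change of Irf9 was -0.37 (limma p 0.0242, adjusted p 0.290). With the class II sum as a covariate, chosen after the data were seen, Ifnar2, Ifngr1 and Lnpep were called as higher and H2-K2 as lower in limma (adjusted p 0.0247, 0.0197, 0.00927 and 0.0254). In that fit 742 of all 13022 rows were called. Irf1, an interferon-inducible activator of class I genes, had a log2 fold change of 0.18 (SE 0.17; adjusted p in limma 0.701). Rfx5, a subunit of the complex through which NLRC5 acts, averaged 1318 ± 107 in the wild type and 1343 ± 25.8 in the knockout (SD, n = 3 per group). Irf1 and Rfx5 were picked for their known roles, outside the rule for named genes.

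**Figure D5:**
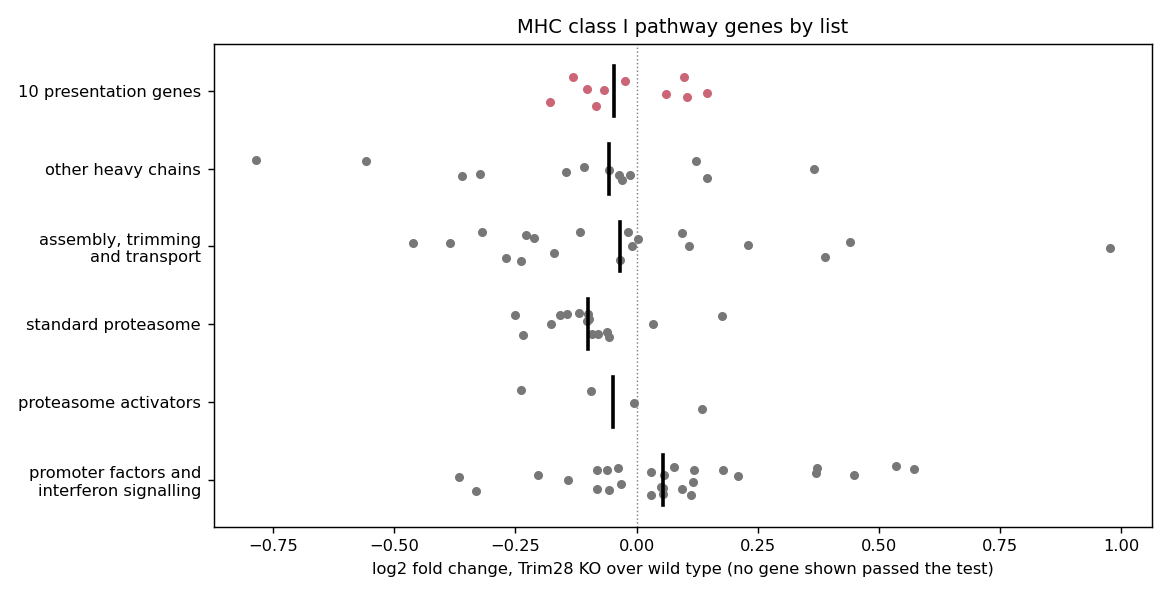
Log2 fold change, Trim28 KO over wild type, of the 10 presentation genes (red) and of the tested genes of the 5 other pathway lists (grey; black bars, medians; vertical scatter carries no value). The medians lie between -0.10 and 0.05, and no gene shown passed the test.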

How the data were processed

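The submitters' processing notes name mm10, STAR, HTSeq and DESeq2 without saying what each did or in which version. The deposited table, made by the authors, holds log10 values of 6 libraries. Taken as 10 to the value minus 1, 100% of the values in each library were whole multiples of 1 step, within 0.01 of a whole number, so each deposited log10 value is the logarithm of a normalized count (reads over the library's size factor) plus 1. Read as log2 or natural log, at most 25.0% were whole. The design had assumed normalized counts, so values were first taken back to that scale. Rows were named from the RefSeq table of GRCm38.p6 (18807 rows) and GENCODE M21 (108), and 133 had no symbol. Where a symbol had several rows, the row with the highest total was used.

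The test was limma 3.58.1 in R 4.3.3, with the empirical Bayes trend, on log2 of the normalized count plus a pseudocount of 1. It was fitted on 13022 rows with a mean of at least 10 and all 6 libraries, with Benjamini-Hochberg adjustment over all rows, two-sided, called under 0.05. Fold changes are on that log2 scale, which understates changes of low genes. Negative binomial tests were not run. The procedure was tested on simulated data with planted changes larger than those of the genes described here. That test does not show how well changes of their size are found. Levels per kb used GENCODE transcript lengths. Promoter windows were aligned with Biopython 1.88.

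The 10 genes and all lists were chosen with earlier results of these data known. Named genes are the 10, up to 3 per pathway list by smallest p where none was called (4 where some were), and the 5 most like Nlrc5. Read totals and reads per gene cover counting error only, and PCR copies are not independent molecules. Alternatives were the pseudocount, filter, scaling, variance model, covariates, replicate block, rows per gene, threshold and leaving out libraries. The values of 1 gene of the pathway lists are not reported here.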

Additional observations from a re-analysis of the deposited data

How the results depend on the processing

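None of the 10 genes was called under any of 21 alternative fits, each gene counted in each (210 values). Nor was any called at an adjusted p under 0.1, against 293 of 13022 rows. Among the 210 values the smallest adjusted p in limma was 0.267 and the largest log2 change 0.29, for Tapbp without KO2. Signs within that range turned for H2-K1, B2m, Psmb8 and Psmb9 under some settings. For other pathway genes the count went from 0 to 1 without KO3 (Lnpep), to 1 at an adjusted p under 0.1 (Ifnar2) and to 4 with the class II covariate, and it was 0 in the remaining settings. Over all rows the count of 196 went to 124 without the mean-variance trend, to 742 with the class II covariate and to 37 in the 2 against 2 libraries with nearly no Y-linked transcripts. The last 2 settings were chosen after the data were seen. Leaving out 1 library gave 113 (without KO2) to 553 (without KO3), with 124 without WT1 and 127 without WT3. Calls that were lower in the knockout made up 41 of the 196.

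The replicate numbers were not shown to pair the libraries, and the labels do not say whether they do. Same-numbered libraries had correlations of deviations of -0.31, 0.26 and 0.36. Differently numbered ones ran from -0.44 to 0.37, so these values cannot decide the question. With the replicate block 175 rows were called, 0 of the 10 genes and 0 of the other pathway genes. Scaling by total raised the median of all rows from 0.0019 to 0.06, that of the assembly, trimming and transport list from -0.03 to 0.02 and that of the proteasome activators from -0.05 to 0.01. Tapbp rests on 73 to 197 reads per library, and the other 9 genes on more reads.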
